A study of Mus musculus with 10 samples.

Results

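The 35 genes described here encode the stress transcription factor ATF4, factors that act beside it or feed back on it, and the enzymes and transporters that supply cells with amino acids and one-carbon units. They were chosen by name: a row of the count table belonged to the set if the mouse GENCODE M21 annotation gave its Ensembl identifier 1 of the 35 symbols, and all 35 were found among the 18381 genes of the table. The samples were first lower molars of wild type C57BL/6JOlaHsd mouse embryos at embryonic day 14, cultured in hanging drops for 6 h. From each of 5 embryos (1, 2, 3, 4 and 6), 1 molar received medium with mouse recombinant IGF1, insulin-like growth factor 1, at 750 ng/ml, and the other received medium with the same volume of the vehicle, PBS with BSA, and is called the control. Each molar gave 1 RNA library, so the comparison is of 5 IGF1 with 5 control libraries paired by embryo, and it asks which of the 35 transcripts differ in level after IGF1. The model is an explanted whole tooth germ that holds epithelium and mesenchyme together, without its blood supply.

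When amino acids are short, when unfolded protein collects in the endoplasmic reticulum (ER) or when growth factors drive protein synthesis through mTORC1, cells make more ATF4 protein, largely by translating more of an mRNA that is already there. ATF4 then binds, with C/EBP partners, to a DNA element known as the C/EBP-ATF response element, and raises genes for asparagine, serine, glycine, proline and cysteine synthesis, for mitochondrial one-carbon metabolism and for amino acid uptake. Another group of its targets, among them Ddit3, Trib3 and Chac1, belongs to the late or feedback arm of the stress response. RNA levels measure the targets and the Atf4 transcript, not ATF4 protein.

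The element that ATF4 recognises was looked for in the promoters of the members, and the sequences that hold it are shown because they include 3 of the members called higher as well as members that were not called or, for Trib3, not tested. The letters TGATGNAA, where N is any base, were searched on both strands of RefSeq promoter windows on GRCm38.p6, from 250 bases before to 50 bases after each gene start. Of the 35 members, 29 had a window in the table. The match stands in capitals, each sequence is on the strand of its gene, and TTNCATCA is the same motif read on the opposite strand; no other motif was searched. Sequences that reach a GENCODE M21 exon of the gene or pass the RefSeq start are limited to 30 bases.
Asns, chr6:7693214-7693243, minus strand: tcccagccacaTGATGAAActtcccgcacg
Chac1, chr2:119351023-119351082, plus strand: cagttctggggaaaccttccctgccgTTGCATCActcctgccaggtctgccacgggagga
Slc1a4, chr11:20332699-20332728, minus strand: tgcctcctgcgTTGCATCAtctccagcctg
Trib3, chr2:152344028-152344057, minus strand: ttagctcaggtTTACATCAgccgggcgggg
Atf3, chr1:191183410-191183469, minus strand: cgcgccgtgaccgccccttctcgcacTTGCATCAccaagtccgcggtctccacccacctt
Nupr1, chr7:126625562-126625591, minus strand: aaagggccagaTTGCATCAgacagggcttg
Pycr1, chr11:120643818-120643877, minus strand: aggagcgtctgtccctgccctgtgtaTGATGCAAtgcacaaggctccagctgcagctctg
Got1, chr19:43524674-43524733, minus strand: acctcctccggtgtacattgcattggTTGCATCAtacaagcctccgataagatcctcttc
Slc7a11, chr3:50443627-50443705, minus strand: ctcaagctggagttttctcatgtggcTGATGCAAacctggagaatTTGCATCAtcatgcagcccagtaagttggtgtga

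These letters were present in the windows of 9 of 29 members (31.0%) and of 1219 of 27025 genes with a window (4.51%). Among the members called higher after IGF1 with a window, 3 of 13 held them (23.1%), and among the other members with a window, which include the untested Trib3, 6 of 16 did (37.5%). A match is a description of the sequence and no measurement of binding, and members without a match were only searched within this window.

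Library totals ranged from 2845773 to 8403151 counts in the control molars and from 3456634 to 8763113 in the IGF1 molars, with embryo 1 the shallowest in both. Mitochondrial genes took 2.51, 2.09, 2.07, 2.05 and 2.17% of the counts in the IGF1 molars of embryos 1, 2, 3, 4 and 6 and 2.45, 3.28, 2.64, 2.17 and 2.94% in their controls, lower with IGF1 in 4 of 5 pairs, and the part of this share in the results was not tested. The test was the quasi-likelihood test of edgeR, with embryo as a block and Benjamini-Hochberg adjustment over 14504 genes, and "called" means an adjusted p under 0.05. All 12 listed markers of dental epithelium and all 12 of dental mesenchyme were detected, with summed levels of 2581 to 3619 and 4918 to 6472 CPM (counts scaled to a common library size) in the IGF1 molars against 2352 to 3529 and 5575 to 6612 in the controls. Markers of red blood cells were called lower in 5 of 7 tested, with sums of 426 to 669 CPM against 596 to 1018, those of endothelium in 1 of 7 (307 to 407 against 387 to 440) and those of macrophages in 1 of 7 (52.8 to 79.5 against 58.6 to 84.0). No listed marker found in the table was at 0 in all samples, which was fixed in advance, since no row summed to less than 10 counts. The part of cell composition in the results below was not tested, and in whole molars fewer cells of a type and less RNA per cell cannot be told apart. The IGF1 molar of embryo 2 stood apart from the other IGF1 molars for many members, with the highest IGF1 level of 28 of the 35, and fold changes without it are given beside the results or with the comparison of embryos at the end.

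After 6 h of IGF1, 17 of the 34 members tested were called higher and 0 lower, where 6.72% of all genes tested were called higher, 4.76% lower and 11.5% either way. By DESeq2's Wald test, which called 5.43% of all genes higher, the counts were also 17 and 0, with 15 genes in common: Cth (adjusted p = 0.130) and Slc7a1 (adjusted p = 0.0928) were not called by it, and Pycr1 (adjusted p = 0.0398) and Sesn2 (adjusted p = 0.0166) were. The median log2 fold change was 0.73 over the 34 members and -0.0038 over all genes tested. Of those not called, 14 had a fold change above 0 and 3 below. In all 5 embryos the IGF1 molar was above its control for 22 of the 34 members, where 13.0% of all genes were, and in 17 of the 34 every IGF1 molar was above every control molar, where 4.21% of all genes were. The members and the further lists below were chosen with earlier results of these data known. Their counts beside the shares of all genes are therefore descriptions and no test of the set. Trib3, the remaining member, had too few counts to pass the filter on low counts, which asked for 1.42 CPM (10 counts at the median library total, before TMM scaling) in 5 molars. Of the 34 that passed, 32 met this minimum in every control molar, Nupr1 in 3, and Chac1 in 0, so that Chac1 was tested only because of its IGF1 level.

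By role, the enzymes of amino acid synthesis and one-carbon metabolism were called most often, 10 of 15 with a median log2 fold change of 1.02, followed by 4 of 9 transporters (median 0.58) and 3 of 10 tested stress and feedback factors (median 0.56). Summed over the 15 enzymes, the level was 726 to 1346 CPM in the IGF1 molars and 433 to 465 CPM in the controls. The plot of fold changes by role shows this order and the standard errors.

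**Figure D1:**
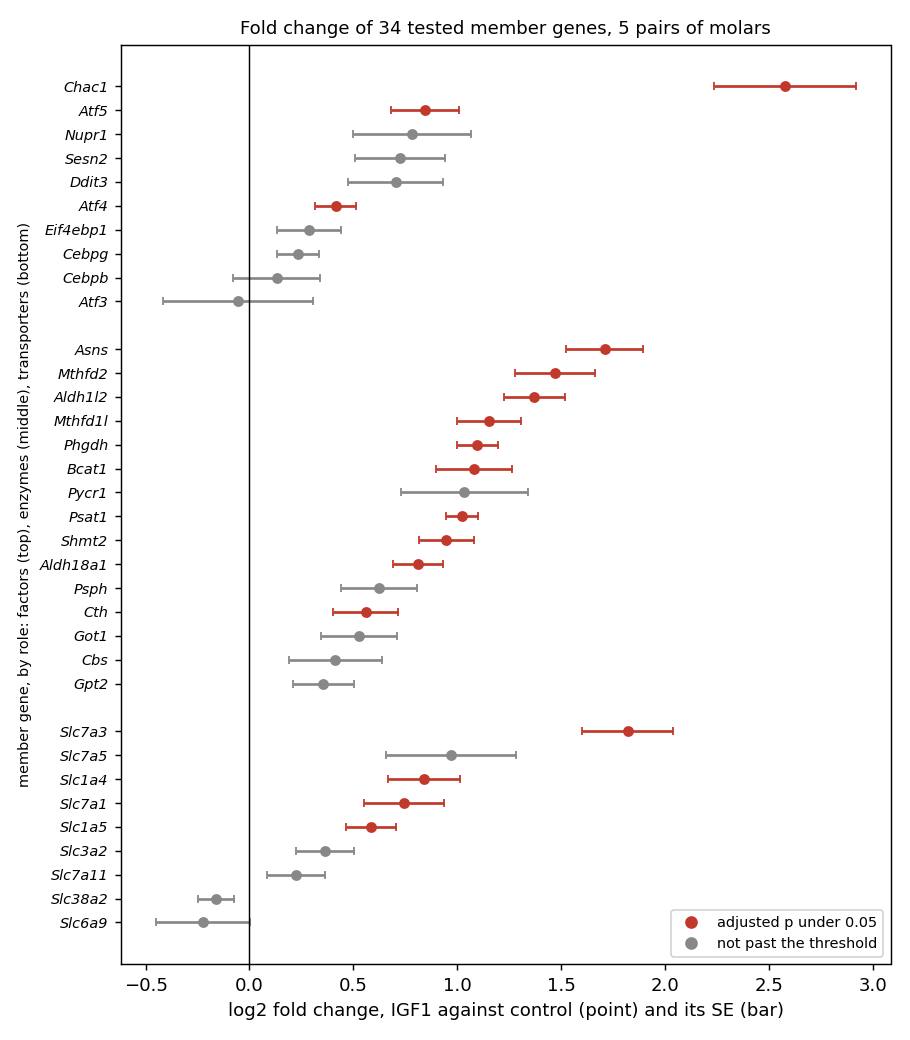
Log2 fold change (IGF1 against control, x axis) of the 34 tested members, with bars of 1 standard error, grouped by role from factors at the top to transporters at the bottom; red marks an adjusted p under 0.05. The 17 red points all lie above 0, from 0.41 for Atf4 to 2.58 for Chac1, and 10 of them are enzymes. Chac1 passed the filter only through its IGF1 molars, and the next highest point is Slc7a3 at 1.82.

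Atf4 itself (chr15:80255184-80257541, plus strand, GRCm38) rose modestly. In embryos 1, 2, 3, 4 and 6 it stood at 101, 84.6, 83.5, 91.3 and 92.1 CPM in the control molars and at 111, 154, 103, 122 and 115 CPM in the IGF1 molars. Every IGF1 molar was above every control molar, though the lowest IGF1 and the highest control value nearly met, and embryo 2 had the highest value. The log2 fold change was 0.41 (SE 0.097, n = 5 pairs), or 1.33-fold, with an adjusted p of 0.0197. Without embryo 2 the log2 fold change was 0.30 (adjusted p = 0.0473), and the call was lost without embryo 4 (0.41, adjusted p = 0.0666) or without embryo 6 (0.43, adjusted p = 0.0516).

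Atf5, a transcription factor closely related to ATF4, went from 13.7, 7.89, 10.99, 9.79 and 8.63 CPM in the controls to 25.6, 23.2, 16.0, 15.8 and 12.7 CPM with IGF1. Each IGF1 molar exceeded its own control, while the groups overlapped because the IGF1 molar of embryo 6 lay below the control of embryo 1. Its log2 fold change was 0.85 (SE 0.16, adjusted p = 0.00786), and 0.66 without embryo 2 (adjusted p = 0.0197).

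Chac1 (chr2:119351229-119354381, plus strand), an enzyme that breaks down glutathione, was one of the least abundant members. It measured 1.03, 1.31, 0.709, 0.851 and 0.454 CPM in the controls and 4.90, 16.3, 3.44, 3.53 and 1.71 CPM with IGF1. The groups did not overlap, but the values rest on few reads, from 3 counts in the lowest library to 137 in the highest. The log2 fold change was 2.58 (SE 0.34), or 5.97-fold, with an adjusted p of 0.000902, and without embryo 2 it was 2.11 (adjusted p = 0.00753). Since all 5 control molars lay under the minimum of the filter and all 5 IGF1 molars above it, a gene admitted in this way had to differ, and its call carries less weight than the others. Its promoter window holds the motif shown above.

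Trib3, a pseudokinase that damps ATF4 and DDIT3 activity, measured 1.37, 0.730, 1.299, 0.709 and 0.757 CPM in the controls and 2.88, 28.3, 11.7, 2.96 and 1.43 CPM with IGF1. Embryos 2 and 3 were far above the others, and the groups did not overlap. It was not tested among the 14504 genes. Without the filter on low counts its log2 fold change was 2.98 (SE 0.52, adjusted p = 0.00529, counts from 4 to 238). Leaving out embryo 2 lowered its mean in the IGF1 molars from 9.45 to 4.74 CPM and its mean log2 ratio from 2.06 to 1.44.

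The other 7 feedback factors were not called. Sesn2, a sestrin that restrains mTORC1, came nearest with a log2 fold change of 0.72 (SE 0.22, adjusted p = 0.0548). Its levels were 20.3, 11.98, 18.4, 22.1 and 18.3 CPM in the controls and 29.1, 45.9, 29.4, 23.6 and 24.0 CPM with IGF1, without overlap, and the log2 fold change without embryo 2 was 0.41 (adjusted p = 0.0863). Ddit3, which encodes the pro-apoptotic factor CHOP, measured 13.1, 9.20, 12.5, 11.6 and 8.48 CPM in the controls and 15.8, 35.1, 15.3, 14.5 and 12.6 CPM with IGF1. Only embryo 2 moved far, and the groups overlapped. The log2 fold change of Ddit3 was 0.70 (SE 0.23, adjusted p = 0.0766) with embryo 2 and 0.36 (adjusted p = 0.169) without it.

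Nupr1, a small stress-induced chromatin protein, had a log2 fold change of 0.78 (adjusted p = 0.102). The values of Cebpb and Cebpg, C/EBP partners of ATF4, were 0.13 (adjusted p = 0.740) and 0.23 (adjusted p = 0.166), and that of Eif4ebp1, the translation repressor 4E-BP1, was 0.29 (adjusted p = 0.268). Atf3, another stress-induced factor of the same family, had -0.06 (SE 0.36, adjusted p = 0.945), with 1.73 to 8.44 CPM in the IGF1 molars and 2.72 to 6.87 CPM in the controls. Its IGF1 molar was above the control in 2 of 5 embryos.

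Among the enzymes, Asns (chr6:7675169-7693254, minus strand), which makes asparagine from aspartate and glutamine, had the highest fold change. Its levels were 22.0, 30.2, 29.5, 19.1 and 32.4 CPM in the controls and 51.0, 183, 93.8, 68.6 and 66.8 CPM with IGF1. The lowest IGF1 molar was above the highest control, and embryo 2 stood far above the other IGF1 molars. The log2 fold change was 1.71 (SE 0.19), or 3.27-fold, with an adjusted p of 0.000279, and without embryo 2 it was 1.46 (adjusted p = 0.000139).

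The first steps of serine synthesis rose with little spread between embryos. Phgdh (chr3:98313170-98339990, minus strand), which catalyses the first step from the glycolytic intermediate 3-phosphoglycerate, went from 58.1, 47.3, 59.1, 57.4 and 54.4 CPM in the controls to 115, 125, 97.0, 126 and 129 CPM. Psat1 (chr19:15904678-15947337, minus strand), the aminotransferase of the next step, went from 58.4, 77.4, 65.7, 85.8 and 73.2 CPM to 118, 179, 144, 152 and 139 CPM. In neither gene did the groups overlap, and in Phgdh the IGF1 molar of embryo 2 lay within the range of the others. The log2 fold changes were 1.10 for Phgdh (SE 0.098, adjusted p = 7.28e-05) and 1.02 for Psat1 (SE 0.077, adjusted p = 2.32e-05). Over the 5 embryos the log2 ratio of Psat1 had an SD of 0.15, the smallest of the 35 members. Psph, the phosphatase of the last step, was not called, with 10.8 to 12.6 CPM in the controls, 11.2 to 27.1 CPM with IGF1 and a log2 fold change of 0.62 (SE 0.18, adjusted p = 0.0518).

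All 4 members that handle folate-bound one-carbon units in mitochondria rose. Shmt2, which splits serine into glycine and a one-carbon unit, stood at 54.6, 46.6, 48.5, 51.5 and 48.3 CPM in the controls and at 78.9, 144, 93.9, 89.6 and 81.4 CPM with IGF1. Mthfd2, the dehydrogenase that oxidises that unit, stood at 17.2, 20.6, 18.9, 23.4 and 17.6 CPM in the controls and at 36.6, 113, 50.5, 41.5 and 46.5 CPM with IGF1. In both genes the groups were apart and embryo 2 was the highest IGF1 molar by a wide margin. The log2 fold changes were 0.95 for Shmt2 (SE 0.13, adjusted p = 0.00127) and 1.47 for Mthfd2 (SE 0.19, adjusted p = 0.000846).

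Mthfd1l, which releases the unit as formate, measured 17.5, 13.1, 12.8, 13.2 and 15.8 CPM in the controls and 29.7, 45.1, 31.9, 28.9 and 24.8 CPM with IGF1. Aldh1l2, which oxidises it to carbon dioxide while making NADPH, measured 29.2, 35.8, 35.3, 32.2 and 37.1 CPM in the controls and 69.7, 157, 87.7, 71.8 and 71.0 CPM with IGF1. Again every IGF1 molar was above every control. The log2 fold changes were 1.15 for Mthfd1l (SE 0.16, adjusted p = 0.00107) and 1.37 for Aldh1l2 (SE 0.15, adjusted p = 0.000257).

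**Figure D2:**
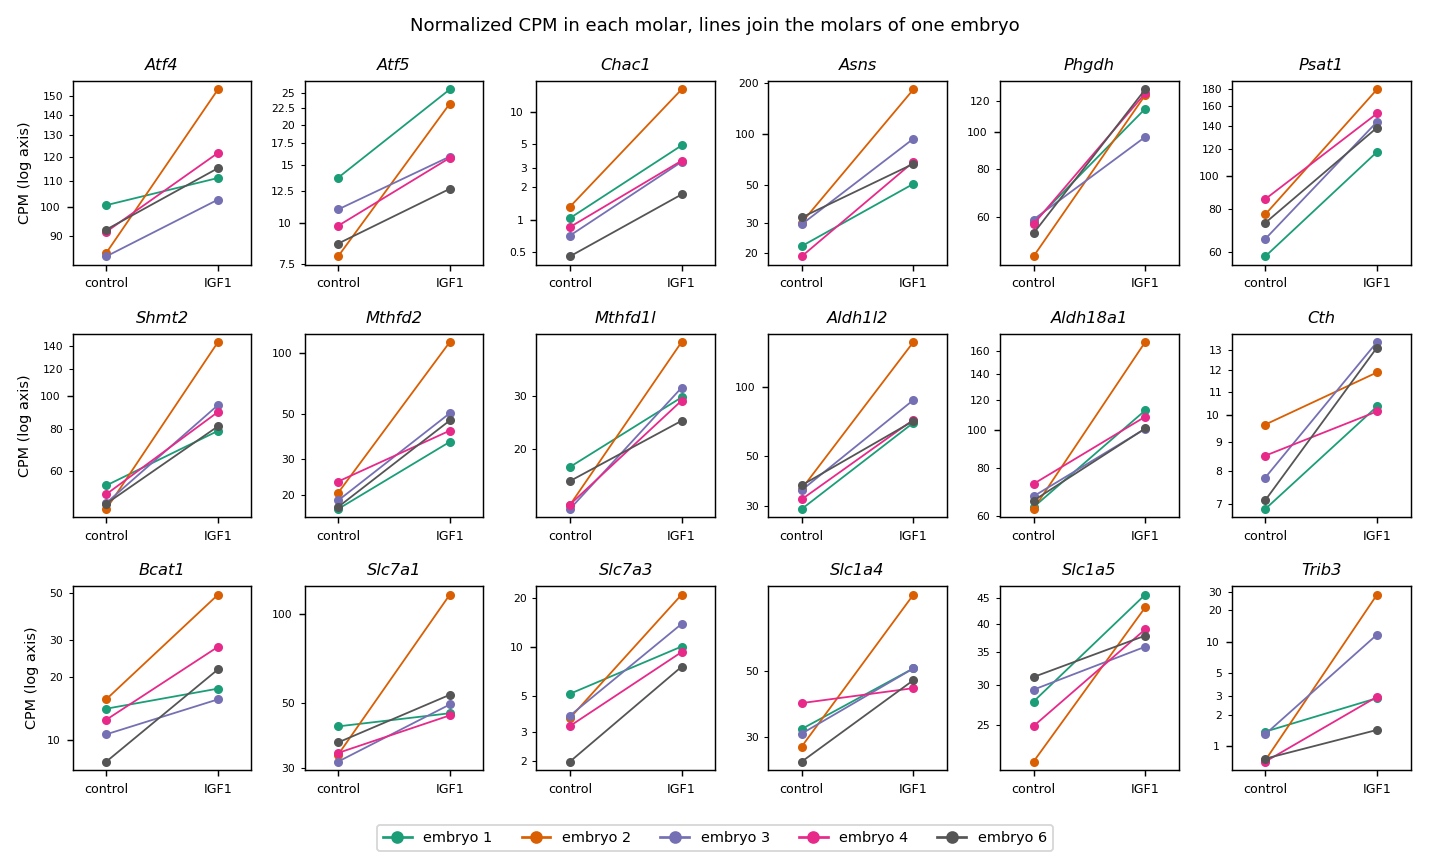
Normalized CPM (log axis) in the control and IGF1 molar of each embryo for the 17 members called higher and for Trib3, with a line joining the molars of 1 embryo. All lines rise from left to right, and that of embryo 2 ends highest in most panels, as for Mthfd2 at 113 CPM against 36.6 to 50.5 CPM in the other IGF1 molars.

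The folate enzymes outside the set moved less, and not all one way. Of 15 genes of the folate and methionine cycles listed beside the members, 5 were called higher and 1 lower. Tyms, thymidylate synthase, had a log2 fold change of 0.55 (adjusted p = 0.00217). The mitochondrial serine carrier Sfxn1 had 0.42 (adjusted p = 0.0151) and the cytosolic trifunctional enzyme Mthfd1 0.35 (adjusted p = 0.0350). Mtr, methionine synthase, fell by 0.48 on the log2 scale (adjusted p = 0.00301), lower in all 5 embryos. Shmt1, the cytosolic counterpart of Shmt2, had -0.41 (adjusted p = 0.0934), and Mthfd2l, a mitochondrial relative of Mthfd2, had -0.19 (adjusted p = 0.280).

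Log2 ratios were set against each other within each embryo for 4 pairs of related enzymes, picked after their values had been seen. The log2 ratio of Shmt2 exceeded that of Shmt1 by 1.34 on average (SD 0.69, range 0.54 to 2.30), that of Mthfd2 exceeded Mthfd1 by 1.06 (SD 0.72) and Mthfd2l by 1.62 (SD 0.71), and that of Mthfd1l exceeded Mthfd1 by 0.74 (SD 0.64). The first gene was ahead in 5 of 5 embryos in each pair. Since the pairs were picked on these values, no test is given.

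**Figure D3:**
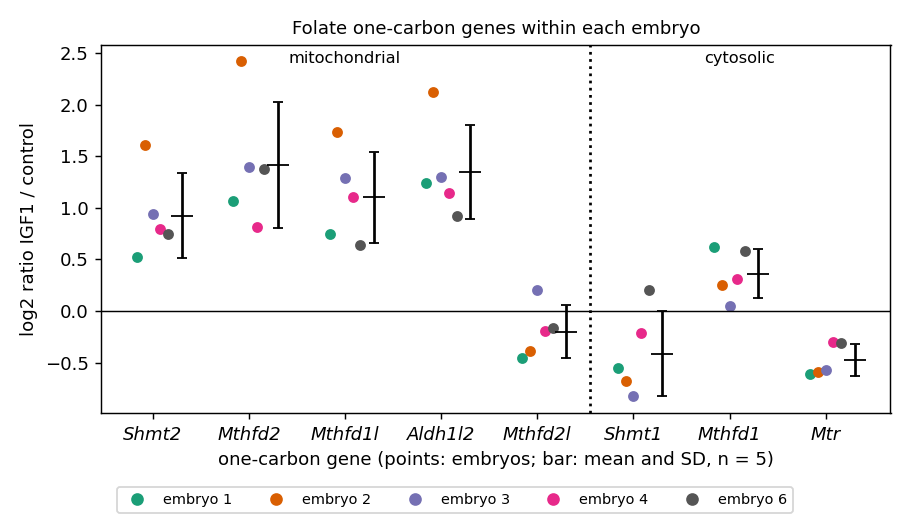
Log2 ratio of the IGF1 to the control molar in each embryo (points) for 8 one-carbon genes, mitochondrial to the left and cytosolic to the right of the dotted line, with the mean and SD over 5 embryos as black bars. The 4 members on the left are above 0 in every embryo, Mthfd2l is above 0 in 1 embryo and Mtr in 0.

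Of the remaining enzymes, Aldh18a1, the first enzyme of proline synthesis, rose from 63.2, 62.5, 67.4, 72.6 and 65.7 CPM to 113, 169, 101, 108 and 101 CPM, without overlap (log2 fold change 0.81, SE 0.12, adjusted p = 0.00193). Pycr1, which makes the last step to proline, was low, at 1.42 to 5.50 CPM in the controls and 3.67 to 9.63 CPM with IGF1. Its log2 fold change of 1.03 (SE 0.31) had an adjusted p of 0.0529, and it was higher in all 5 embryos.

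Bcat1, the cytosolic branched-chain aminotransferase, went from 14.1, 15.6, 10.6, 12.5 and 7.88 CPM to 17.6, 49.3, 15.6, 27.8 and 21.7 CPM. It was higher in each embryo, with overlapping groups, and had a log2 fold change of 1.08 (SE 0.18, adjusted p = 0.00394). Cth, which releases cysteine from cystathionine, went from 6.87, 9.64, 7.80, 8.51 and 7.12 CPM to 10.4, 11.9, 13.4, 10.2 and 13.1 CPM. These groups did not overlap, and embryo 2 was not the highest. The log2 fold change of Cth, 0.56 (SE 0.16), was the weakest call with an adjusted p of 0.0415, and the call was lost whenever 1 embryo was left out (adjusted p 0.0572 to 0.162). Cbs, which makes cystathionine, had 0.41 (adjusted p = 0.273), Got1, the cytosolic aspartate aminotransferase, 0.53 (adjusted p = 0.0903) and Gpt2, the mitochondrial alanine aminotransferase, 0.35 (adjusted p = 0.148).

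Among 15 tested amino acid enzymes listed outside the set, 2 were called higher and 1 lower. The mitochondrial aminotransferases Got2 and Bcat2 had log2 fold changes of 0.36 (adjusted p = 0.0129) and 0.33 (adjusted p = 0.0332). Glul, which makes glutamine from glutamate and ammonia, measured 276, 237, 251, 268 and 237 CPM in the controls and 191, 145, 147, 177 and 147 CPM with IGF1. It was lower in every embryo without overlap and fell by 0.66 on the log2 scale (SE 0.065, adjusted p = 0.000147).

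Of the transporters, Slc7a3 (chrX:101079210-101086020, minus strand), a carrier of the cationic amino acids arginine and lysine, had the highest fold change. It measured 5.15, 3.65, 3.78, 3.26 and 1.97 CPM in the controls and 10.1, 21.04, 13.9, 9.32 and 7.57 CPM with IGF1. The groups were apart, and the log2 fold change was 1.82 (SE 0.22, adjusted p = 0.000580), or 1.60 without embryo 2. Slc7a1, the widely expressed carrier of the same amino acids, measured 41.6, 33.3, 31.5, 33.8 and 36.7 CPM in the controls and 46.1, 117, 49.4, 45.3 and 53.2 CPM with IGF1. The groups were apart for Slc7a1 too, but embryo 2 held much of the difference. Its log2 fold change was 0.74 (SE 0.19, adjusted p = 0.0295) with embryo 2 and 0.46 (adjusted p = 0.0245) without it, and the call was lost without embryo 3, 4 or 6 (adjusted p = 0.0503, 0.0557 and 0.0663).

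The neutral amino acid carriers Slc1a4 and Slc1a5 both rose. Slc1a4 (chr11:20302180-20332713, minus strand), which exchanges alanine, serine and cysteine, went from 31.9, 27.9, 30.8, 39.0 and 24.8 CPM to 51.0, 90.0, 51.0, 43.8 and 46.5 CPM. Slc1a5, the glutamine exchanger ASCT2, went from 27.8, 21.04, 29.4, 24.8 and 31.2 CPM to 45.8, 43.1, 35.9, 39.0 and 37.8 CPM. Neither pair of groups overlapped, and embryo 2 stood out for Slc1a4 but not for Slc1a5. The log2 fold changes were 0.84 (SE 0.17, adjusted p = 0.0104) and 0.58 (SE 0.12, adjusted p = 0.0103).

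Slc7a5, the light chain of the large neutral amino acid carrier LAT1, did not pass the test. It measured 32.6, 12.7, 21.4, 21.6 and 37.7 CPM in the controls and 25.9, 87.4, 43.8, 32.0 and 58.2 CPM with IGF1. Embryo 1 was lower with IGF1 while embryo 2 was far higher, and the log2 fold change was 0.97 with an SE of 0.31 (adjusted p = 0.0722), or 0.54 without embryo 2 (adjusted p = 0.0933). Its heavy chain Slc3a2 had 0.36 (adjusted p = 0.126) and Slc7a11, the cystine carrier that also pairs with Slc3a2, 0.22 (adjusted p = 0.337).

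The glycine carrier Slc6a9 and the glutamine and alanine carrier Slc38a2 were not called and leaned the other way. Slc6a9 measured 40.2, 23.4, 28.9, 39.7 and 24.1 CPM in the controls and 23.3, 46.7, 26.1, 22.6 and 16.7 CPM with IGF1. It was lower with IGF1 in every embryo except embryo 2. Its log2 fold change was -0.22 (adjusted p = 0.578), and without embryo 2 it was -0.56 with an adjusted p of 0.0334, so that it was then called lower.

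Slc38a2 measured 612, 694, 656, 780.0 and 594 CPM in the controls and 498, 640.1, 745, 585 and 533 CPM with IGF1. It was higher with IGF1 only in embryo 3, and its log2 fold change was -0.16 (SE 0.086, adjusted p = 0.270). Of 17 further amino acid transporters listed outside the set, 0 were called higher and 3 lower: Slc38a7 (-0.49, adjusted p = 0.0268), Slc38a9 (-0.40, adjusted p = 0.0313) and the taurine carrier Slc6a6 (-0.28, adjusted p = 0.0333).

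Levels of different genes were compared only per length, as mean CPM per kilobase of the exons that GENCODE M21 gives a gene. On this scale, Slc38a2 was the most abundant member in the controls at 75.5 ± 8.4 (SD, n = 5), followed by Atf4 at 38.4 ± 2.9. Phgdh (22.2 ± 1.9), Eif4ebp1 (19.4 ± 2.2), Slc3a2 (17.9 ± 1.7), Psat1 (16.9 ± 2.5), Aldh18a1 (16.3 ± 0.99) and Shmt2 (16.1 ± 1.0) came next, and from Eif4ebp1 to Shmt2 each neighbour differed from the next by less than its SD. Asns stood at 9.75 ± 2.1 in the controls and 33.8 ± 19 with IGF1, and Phgdh reached 47.6 ± 5.3. The lowest members in the controls were Chac1 (0.533 ± 0.20), Trib3 (0.458 ± 0.16) and Cbs (0.454 ± 0.12), whose SDs exceed the differences between them.

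The size of the response differed between embryos. The median log2 ratio of the members was 0.41, 1.31, 0.63, 0.42 and 0.62 in embryos 1, 2, 3, 4 and 6. For 27 of the 34 tested members, and for 16 of the 17 called higher, embryo 2 gave the highest ratio of the 5, which it did for 20.5% of all genes tested. Without embryo 2, 16 of the 17 were still called, the exception being Cth, where 4.80% of all genes were called higher and 3.37% lower, and the member median was 0.53. The log2 fold changes without embryo 2 were 0.77 for Shmt2, 1.19 for Mthfd2, 0.98 for Mthfd1l, 1.16 for Aldh1l2, 0.64 for Aldh18a1, 0.90 for Bcat1, 0.61 for Slc1a4, 0.47 for Slc1a5, 1.02 for Phgdh and 0.97 for Psat1, all still called (adjusted p of 6.23e-05 to 0.0310). Of the members not called, Eif4ebp1 went to 0.08, Slc3a2 to 0.17, Gpt2 to 0.17, Cebpg to 0.15, Cebpb to 0.07, Psph to 0.42, Got1 to 0.40, Slc7a11 to 0.16, Nupr1 to 0.63, Pycr1 to 0.91, Cbs to 0.52 and Atf3 to -0.41 (adjusted p of 0.149 to 0.901). With embryos 2 and 3 both left out, a choice made after seeing the data, 15 of the 17 were still called, where 5.80% of all genes were called higher and 4.41% lower, and the member median was 0.46. Atf4 (0.30, adjusted p = 0.0541) and Cth (0.57, adjusted p = 0.145) were then not called, and Slc6a9 (-0.72, adjusted p = 0.00483) and Slc38a2 (-0.29, adjusted p = 0.0296) were called lower.

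**Figure D4:**
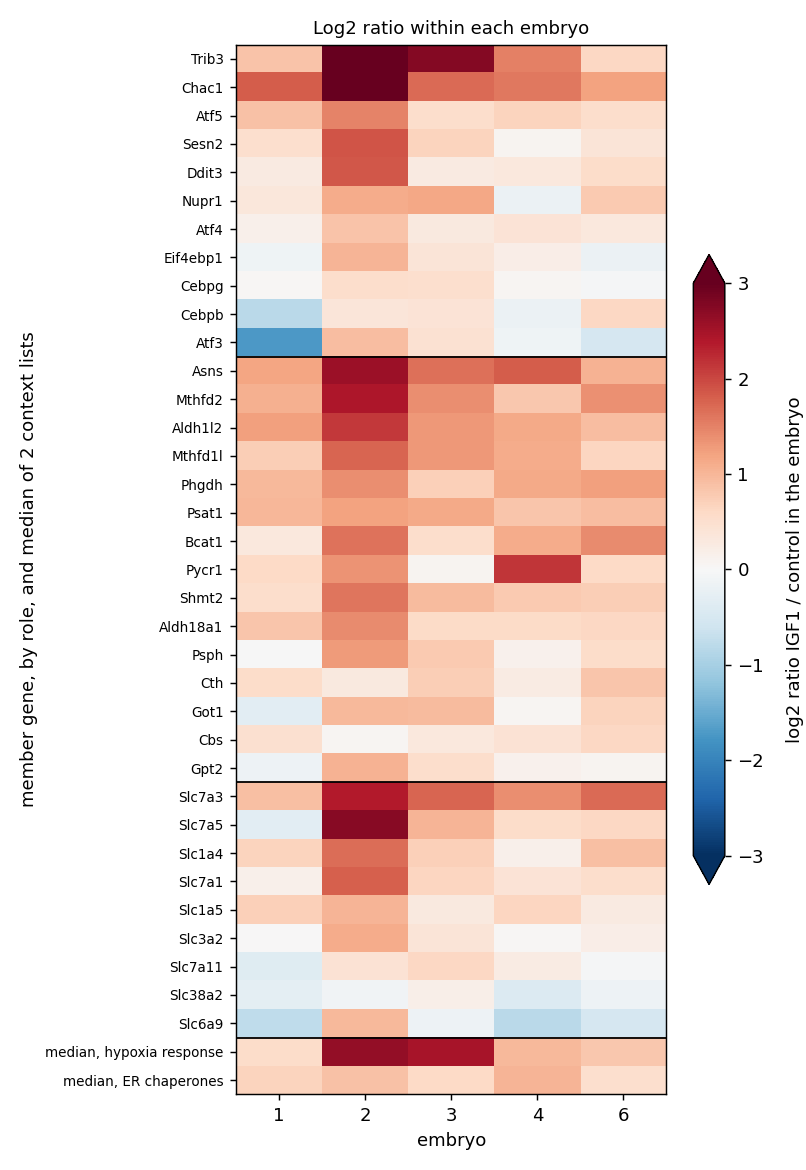
Log2 ratio of the IGF1 to the control molar within each embryo (columns) for the 35 members, grouped by role, and below them the median ratio of a hypoxia list and of an ER chaperone list; red is higher with IGF1, and colours saturate at 3 in either direction. The column of embryo 2 is the reddest, with a member median of 1.31, while in embryo 3 the hypoxia median of 2.46 stands beside a member median of 0.63.

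Other stress programmes are given beside the members, and not all of them rose. Of 17 tested genes of a hypoxia list, which shares 0 genes with the members, 15 were called higher, with a median log2 fold change of 1.69. The median ratio of that list was 0.54, 2.63, 2.46, 0.97 and 0.82 in embryos 1, 2, 3, 4 and 6, and its summed level was 1414 to 5122 CPM with IGF1, highest in embryo 2, against 786 to 1205 CPM in the controls. Of 12 ER chaperone and unfolded protein genes, 11 were called higher (median 0.73), with sums of 5774 to 7600 CPM against 2860 to 4550 CPM. The median ratio of this ER list was 0.67, 0.88, 0.60, 1.02 and 0.49 in embryos 1, 2, 3, 4 and 6. It was highest in embryo 4, where the member median was 0.42. Of 10 immediate early and dissection stress genes, 0 were called higher and 1, Egr1, lower. The part of these programmes in the levels of the members was not tested.

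Upstream of ATF4, translation of its mRNA is set by kinases that phosphorylate the initiation factor eIF2. Of 15 genes for an eIF2 subunit, the eIF2 kinases, the regulators Gcn1 and Impact of the kinase GCN2, the eIF2 exchange factor eIF2B and the eIF2 phosphatases, 3 were called higher and 0 lower: Eif2ak3, which encodes the ER stress kinase PERK (log2 fold change 0.43, adjusted p = 0.00492), Eif2ak4, which encodes GCN2 and senses amino acid shortage (0.31, adjusted p = 0.0376), and Eif2s1, the alpha subunit of eIF2 (0.31, adjusted p = 0.0357). All 3 were higher in 5 of 5 embryos. Of 15 tested genes that are reported ATF4 targets outside the set, 10 were called higher and 0 lower. The median log2 ratio of this list was 0.33, 1.18, 0.56, 0.26 and 0.46 in embryos 1, 2, 3, 4 and 6, and without embryo 2, 8 of the 10 were still called, Nars (adjusted p = 0.0792) and Eprs (adjusted p = 0.0573) were not, and Wars (adjusted p = 0.0465) was in addition. The 10 include the secreted glycoprotein Stc2 (3.58, adjusted p = 0.000886), the mTORC1 inhibitor Ddit4 (1.71, adjusted p = 0.00259), the ER oxidase Ero1l (1.90, adjusted p = 0.00320) and the alanyl-tRNA synthetase Aars (0.79, adjusted p = 0.00317). Of the 10, Ddit4, Ero1l, Vegfa (1.19, adjusted p = 0.00490) and Ndrg1 (1.69, adjusted p = 0.0158) are also on the hypoxia list. Without embryo 2 the log2 fold changes were 2.91 for Stc2, 1.38 for Ddit4, 1.58 for Ero1l, 0.60 for Aars, 0.92 for Vegfa and 1.23 for Ndrg1, all still called (adjusted p of 0.00103 to 0.0251).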

How the data were processed

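The table of the authors held estimated counts per Ensembl gene from 10 libraries, deposited as whole numbers. The submitters' processing notes name FastQC 0.11.8, Trimmomatic 0.39, Salmon 0.99.0, DESeq2 and the build GRCm38. The transcript set, strand setting and row filter were not given in the sources used here, and no row summed to less than 10 counts. Reads of near-identical copies or overlapping genes could have been split between them. Symbols came from GENCODE M21 (18276 of 18381 identifiers matched).

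Counts were tested in edgeR 4.0.16 (R 4.3.3) with TMM scaling, its default filter on low counts, a quasi-likelihood fit with embryo as a block and Benjamini-Hochberg adjustment over 14504 genes. SE is the absolute log2 fold change divided by the square root of F. Per-embryo ratios used CPM plus a pseudocount of 0.5. The labels pair the molars by embryo. Deviations from group means correlated within embryos 1, 2, 3, 4 and 6 at 0.33, 0.22, -0.04, 0.19 and 0.33 (median between embryos -0.05). On simulated counts, 45.2% of 199 genes changed by a log2 fold of 0.5 and 90.1% of 192 changed by 1 were recovered. Of the calls, 13.5% and 8.95% fell on unchanged genes, above the threshold of 0.05. The simulated counts held no embryo effect and no embryo apart from the others, so these shares may differ in the data. P-values set a fold change against the spread between these 5 pairs, with that spread moderated over all genes tested. No libraries matched within counting noise (chi-square per degree of freedom 4.47 to 19.4 within groups).

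Alternatives were DESeq2 1.42.0 (size factors and Wald test), library totals, limma-voom (limma 3.58.1), other filters, no block, pairs thinned to equal totals and leaving out each embryo. Members past the threshold, and Atf4, were named with the value in every sample, other members by fold or range, except that the values in every sample of Trib3, Sesn2, Ddit3, Slc7a5, Slc6a9 and Slc38a2 were added after they had been seen, and at most 6 genes of each further list by smallest p, beside a few named after their values were seen (uncalled relatives of members, genes on the hypoxia list, genes whose call changed without embryo 2). Members and lists were chosen with earlier results of these data known. Some genes of the further lists that passed the threshold are counted but not reported here by name.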

Additional observations from a re-analysis of the deposited data

Results flagged for a closer look

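Among the 70 sets of 5 molars formed by the 35 members and 2 groups, 11 held a sample far from the rest by Dixon's test. About 1 in 20, or 3.5, would by chance if the sets were independent. They are not, since all members were measured in the same libraries. In all 11 the sample far from the rest was the IGF1 molar of embryo 2, and it was the highest, so the 11 sets describe 1 molar. The stress factors Ddit3 (35.1 CPM against 12.6 to 15.8 in the other IGF1 molars), Chac1 (16.3 against 1.71 to 4.90), Sesn2 (45.9 against 23.6 to 29.4) and Eif4ebp1 (94.6 against 36.7 to 52.0) were among them. So were the enzymes Shmt2 (144 against 78.9 to 93.9), Mthfd2 (113 against 36.6 to 50.5), Aldh1l2 (157 against 69.7 to 87.7) and Aldh18a1 (169 against 101 to 113). The transporters were Slc7a1 (117 against 45.3 to 53.2), Slc3a2 (120.3 against 68.5 to 77.7) and Slc1a4 (90.0 against 43.8 to 51.0). The control molar of embryo 2 was far from the rest for 0 members.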

How the results depend on the processing

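The number of members called higher ranged from 15 to 22 over the alternatives. Of 471 values recomputed, 423 kept direction and side of the threshold, 15 lost and 24 gained a call, and 9 changed sign, none of them called. Without the replicate block, 887 of all genes were called against 1666 with it, while 16 of the 17 members were kept, Slc7a1 being lost (0.83, adjusted p = 0.0533) and Sesn2 gained. Leaving out 1 embryo gave 986 (without embryo 4) to 1602 calls among all genes, and 994 without embryo 6. Atf3 changed sign with limma-voom (0.12), without the block (0.024), with thinned pairs (0.0020), without embryo 1 (0.26) and without embryo 6 (0.066), its range over left-out embryos being -0.41 to 0.26. Cebpb did so without embryo 6 (-0.0064, range -0.0064 to 0.31) and with embryos 1, 4 and 6 only (-0.067), a setting added after seeing the data, in which Slc7a11 (-0.022) and Eif4ebp1 (-0.037) also did. The causes were not tested. With at least 10 counts required in every sample, 30 members were tested and Chac1 was not among them. With pairs thinned to the smaller total, Chac1 did not pass the filter and was not tested, while Trib3 passed it and was called higher. Chac1 was called in every alternative in which it was tested. Trib3 was also called higher without embryo 6. With all embryos, 4 IGF1 and 0 control molars met the minimum of the filter for Trib3. As for Chac1, a gene admitted only through its IGF1 molars had to differ, so these calls of Trib3 carry less weight. The part of depth in these changes was not tested.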
